A study of Mus musculus with 13 samples.

Results

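Gm32004, Gm44175, Gm27230, Gm38405, Gm20488, BB031773, B630019A10Rik, 4930417O13Rik, A430035B10Rik and Gm2682 are 10 long non-coding RNA (lncRNA) genes that led clusters of mouse thymocytes. They were taken by gene name from the 57010 genes of the count matrices, of which 13112 are lncRNA genes of the GENCODE M21 annotation. The values that chose them were their levels in these same cells, so every value below is a description and none was tested. The label of double-positive (DP) thymocytes held for 7 of the 10, which were highest in the recombining DP cells in both kits. 4930417O13Rik was highest in cells with markers of DP cells under selection (DP-S-like) in the Parse WT data and in Treg-like cells in the Parse Mini data. B630019A10Rik and Gm2682 were highest outside the DP classes in both kits.

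T cells mature in the thymus from double-negative (DN) cells without CD4 and CD8, through DP cells carrying both, to single-positive (SP) CD4 or CD8 cells. DP cells first proliferate (DP-P), then assemble the T cell receptor alpha chain with the Rag1 and Rag2 recombinase (DP-R), and those whose receptor binds self-peptide weakly pass positive selection (DP-S) and switch on Tox, a nuclear factor needed for the CD4 lineage. LncRNAs are transcripts with no long reading frame, and many are made in one cell type or stage only.

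The cells came from the thymus of female C57BL/6N mice aged 2 months and no mouse carried a genetic change or treatment in the sources used here. Each of 2 experiments took 2 mice, and both lobes of each thymus were processed separately as technical replicates, which gave 4 samples for the Parse WT kit (samples 1 to 4) and 4 for the Parse Mini kit (samples 1-A, 1-B, 2-A and 2-B). Cells were not assigned to single mice, so every SD here is the spread over 4 lobes of 2 mice and may be partly technical. The Parse WT library also held 16 samples with no group of their own in the labels. The series text calls the 20 samples of the library thymic and splenic, from young and adult mice, while the study's own text counts the 16 as non-thymic, and the 10x samples of the series were not analysed here.

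After removal of doublets, 3906 to 13219 cells of each thymic Parse WT sample and 4089 to 4938 of each Parse Mini sample were used, with 20338469 to 67818692 UMIs per sample in Parse WT and 17770718 to 19578487 in Parse Mini. Ribosomal RNA took 17.2% to 27.4% of the UMIs in the former and 12.9% to 15.3% in the latter, so levels are counts per 1e6 UMIs outside the ribosomal RNA genes (CPM). A barcode was shared between the kits in 460 cases, and 19867 of 103602 combinations of 3 wells recurred in more than 1 Parse WT sublibrary, where the sublibrary index keeps them apart.

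Most of the 10 genes overlap or adjoin a coding gene (positions in GRCm38, gene extents by GENCODE M21). No source used here states the annotation release behind the counts, and some gene names there are not those of GENCODE M21. Gene extents, exon lengths and overlaps there may therefore differ too. Shares of lncRNA genes given below cover only lncRNA genes of the M21 annotation. Gm32004 (ENSMUSG00000114534) spans chr13:107524061-107565331 on the minus strand, with 2371 exonic bases and no overlapping gene. Gm44175 (ENSMUSG00000108132, chr6:71354351-71360829, minus) is an intergenic lncRNA between Cd8b1 and Cd8a, which encode the CD8 co-receptor, 16856 and 12597 bp away, and lies wholly inside Gm44174 on the opposite strand. Gm38405 (ENSMUSG00000109002, chr7:99870666-99889358, minus) runs antisense inside Xrra1, and 251 of its exonic bases face exons of that gene. Gm27230 (ENSMUSG00000098959, chr9:72395974-72404510, plus) lies inside BC065403 on the opposite strand. Gm20488 (ENSMUSG00000107314, chr5:149368476-149430682, plus) shares exonic bases on the same strand with BC028471 (451 bp) and Medag (1453 bp). BB031773 (ENSMUSG00000085041, chr4:103004106-103011965, minus) faces exons of Tctex1d1 over 1454 bp.

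A430035B10Rik (ENSMUSG00000087305, chr6:8488795-8510430, minus) starts head to head with Glcci1, a glucocorticoid-induced gene, with 830 bp between their 5′ ends. Their 5′ parts overlap, 36 exonic bases included, and A430035B10Rik also lies inside Gm45062 on the opposite strand. B630019A10Rik (ENSMUSG00000068463, chr16:23175280-23224446, plus) ends 293 bp before St6gal1, which encodes a sialyltransferase, and faces exons of BC106179 over 1582 bp. 4930417O13Rik (ENSMUSG00000108129, chr6:125265476-125287286, plus) has Vamp1 and Ltbr as neighbours and faces exons of Tuba3a over 75 bp. Gm2682 (ENSMUSG00000115681, chr15:60120540-60187408, minus) is an intergenic lncRNA with 4933412E24Rik, 103926 bp to the left, and Fam84b, 631585 bp to the right, as the nearest coding genes. Of all 50-base stretches of the exons, 58.2% in Gm20488, 39.0% in BB031773, 18% in B630019A10Rik and 9.9% in Gm38405 also occur in another gene, and at most 1.85% in each of the others. No source used here says whether the counting was by strand, so reads of these 4 and of the genes they share bases with cannot be told apart, and their values are uncertain to that extent. The same holds for A430035B10Rik, 4930417O13Rik, Gm44175 and Gm27230 with the genes that overlap them.

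The RefSeq promoter table used here matched 6 of the 10 genes (250 bases before to 50 after the start), and promoters of Gm44175, Gm20488, B630019A10Rik and Gm2682 were not used here. The 4 below are shown to set 3 genes of the recombining stage beside 4930417O13Rik, highest in other classes (build GRCm38.p6). They are Gm32004 (chr13:107565324-107565623, minus strand), BB031773 (chr4:103011916-103012215, minus), A430035B10Rik (chr6:8509112-8509411, minus) and 4930417O13Rik (chr6:125265275-125265574, plus), whose RefSeq starts lie 42, 0, 1269 and 49 bp from the GENCODE start. Capitals mark matches on either strand to 6 short motifs, whose letters follow the sequences.
Gm32004: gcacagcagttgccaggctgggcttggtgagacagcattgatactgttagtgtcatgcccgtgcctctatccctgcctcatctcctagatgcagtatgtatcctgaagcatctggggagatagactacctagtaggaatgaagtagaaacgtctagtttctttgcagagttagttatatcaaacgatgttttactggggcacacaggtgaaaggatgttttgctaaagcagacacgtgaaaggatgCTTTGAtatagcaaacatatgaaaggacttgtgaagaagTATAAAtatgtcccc
BB031773: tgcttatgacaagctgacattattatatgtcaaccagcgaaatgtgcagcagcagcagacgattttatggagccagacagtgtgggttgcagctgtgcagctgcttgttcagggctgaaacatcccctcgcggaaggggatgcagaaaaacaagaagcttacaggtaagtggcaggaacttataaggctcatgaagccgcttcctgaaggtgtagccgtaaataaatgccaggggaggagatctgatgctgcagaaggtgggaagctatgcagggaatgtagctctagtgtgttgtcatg
A430035B10Rik: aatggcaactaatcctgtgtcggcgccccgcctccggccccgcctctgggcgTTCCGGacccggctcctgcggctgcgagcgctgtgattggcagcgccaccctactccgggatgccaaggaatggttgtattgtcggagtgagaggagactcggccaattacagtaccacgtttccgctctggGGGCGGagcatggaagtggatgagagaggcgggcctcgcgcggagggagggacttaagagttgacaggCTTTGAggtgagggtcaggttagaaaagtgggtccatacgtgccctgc
4930417O13Rik: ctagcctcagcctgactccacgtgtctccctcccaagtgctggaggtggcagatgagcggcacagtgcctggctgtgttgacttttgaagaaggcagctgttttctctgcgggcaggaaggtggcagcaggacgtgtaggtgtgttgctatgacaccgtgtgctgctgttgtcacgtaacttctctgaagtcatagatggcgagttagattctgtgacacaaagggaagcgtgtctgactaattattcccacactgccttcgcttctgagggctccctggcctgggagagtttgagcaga
A TCF match (CTTTGA) stood in 2 of the 6 promoters (Gm32004 and A430035B10Rik) and in 16% of all 32851 RefSeq promoters of the table. A RUNX match (TGTGGT) stood in 1 of 6, Gm27230 with 2 copies, against 16.8% of all. The RefSeq starts of Gm27230 and Gm38405, both among the 6, lie 6060 and 17016 bp from the GENCODE starts. An ETS match (CCGGAA) stood in 1 of 6, A430035B10Rik, against 14.9% of all, and the same promoter held a GC box (GGGCGG), found in 35.7% of all. A TATA match (TATAAA) stood in the printed Gm32004 window, after its RefSeq start, and not in the other Gm32004 promoter of the table, against 13.6% of all promoters. The GATA motif (AGATAA), found in 11.2% of all, was in none of the 6. The E box (CANNTG), which is left in lower case, was in 5 of 6 and in 72.3% of all. A430035B10Rik had the most G and C, 62.3% of bases, against 44.0% in Gm32004 and 49% in BB031773.

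Over whole thymic samples the 10 lncRNAs together made 768 CPM in Parse WT and 878 CPM in Parse Mini, and all 10 were among the 113 lncRNAs with the most UMIs of 8659 detected in Parse WT. Gm2682, with rank 20 among lncRNAs by UMIs, stood at 235.9, 176.8, 181.3 and 157.6 CPM in samples 1 to 4. Gm32004, with rank 32, stood at 124.2, 147.0, 125.4 and 89.7 CPM, and Gm38405, with rank 38, at 130.3, 97.9, 94.1 and 77.9 CPM. Sample 4 was the lowest for all 3, and sample 2 was the highest for Gm32004 only. The means of the others were 77.5 ± 9.57 CPM (SD, n = 4, here and below) for B630019A10Rik, 62.1 ± 8.99 for A430035B10Rik and 59.6 ± 11.4 for 4930417O13Rik. Gm44175 stood at 47.4 ± 7.85 CPM, Gm27230 at 41.3 ± 5.40, Gm20488 at 39.0 ± 3.82 and BB031773 at 31.6 ± 6.17. For scale, Malat1, an abundant nuclear lncRNA of most cells, took 31.7% of all lncRNA UMIs.

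The Parse Mini means ran from 39.7 ± 1.79 CPM for BB031773 to 179.6 ± 10.1 for Gm2682, with Gm38405 at 142.6 ± 10.48 and Gm32004 at 132.8 ± 17.5. Divided by exon length, the Parse WT levels were 85.9 CPM per kb for Gm2682, 63.0 for Gm38405, 49.4 for Gm32004 and 36.3 for Gm27230, and 8.15 to 12.7 for the other 6. Divided by the whole gene span, they were 7.17 CPM per kb for Gm44175, 4.99 for Gm38405, 4.78 for Gm27230, 2.84 for Gm32004 and 2.66 for Gm2682. The order of the genes therefore depended on whether introns were counted in the length, and no order between them is read here. A level over a whole sample does not tell fewer cells of a type from less RNA per cell, and the cells are therefore split by class next.

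The cells of each kit were clustered with the 10 lncRNAs removed from the clustering genes, into 21 clusters per kit, and clusters were named by marker genes, as DP-R-like and so on. DP-R-like cells were the largest class, with 15602 cells in 6 clusters of Parse WT and 9204 cells in 7 clusters of Parse Mini. The other Parse WT classes with more than 500 cells were DP-P-like (6445), DP-S-like (4104), SP-CD4-like (1416), DN-like (1006), SP-CD8-like (989), Treg-like (951, named from markers of regulatory T cells), other CD3+-like (532) and B-like (517). Foxp3, the defining factor of regulatory T cells, was at 27.8 ± 11.3 CPM in Treg-like and 5.71 ± 1.90 in SP-CD4-like cells of Parse WT, and was not among the 5 leading genes of the Treg-like cluster of either kit. Treg-like cells held Rag1 at 482.7 CPM, and the cluster is called by its markers only. Clusters with mixed or weak markers, shallow ones without a leading marker, and any on a list of exceptions stayed unnamed. They held 2912, 1851 and 878 cells in Parse WT and 1250, 853 and 148 in Parse Mini. The Parse Mini cluster of 148 cells was led by Zfp366 and Adam23. So was a Parse WT cluster of 220 cells that was named from markers of antigen-presenting cells, so the named classes differ between the kits.

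**Figure D1:**
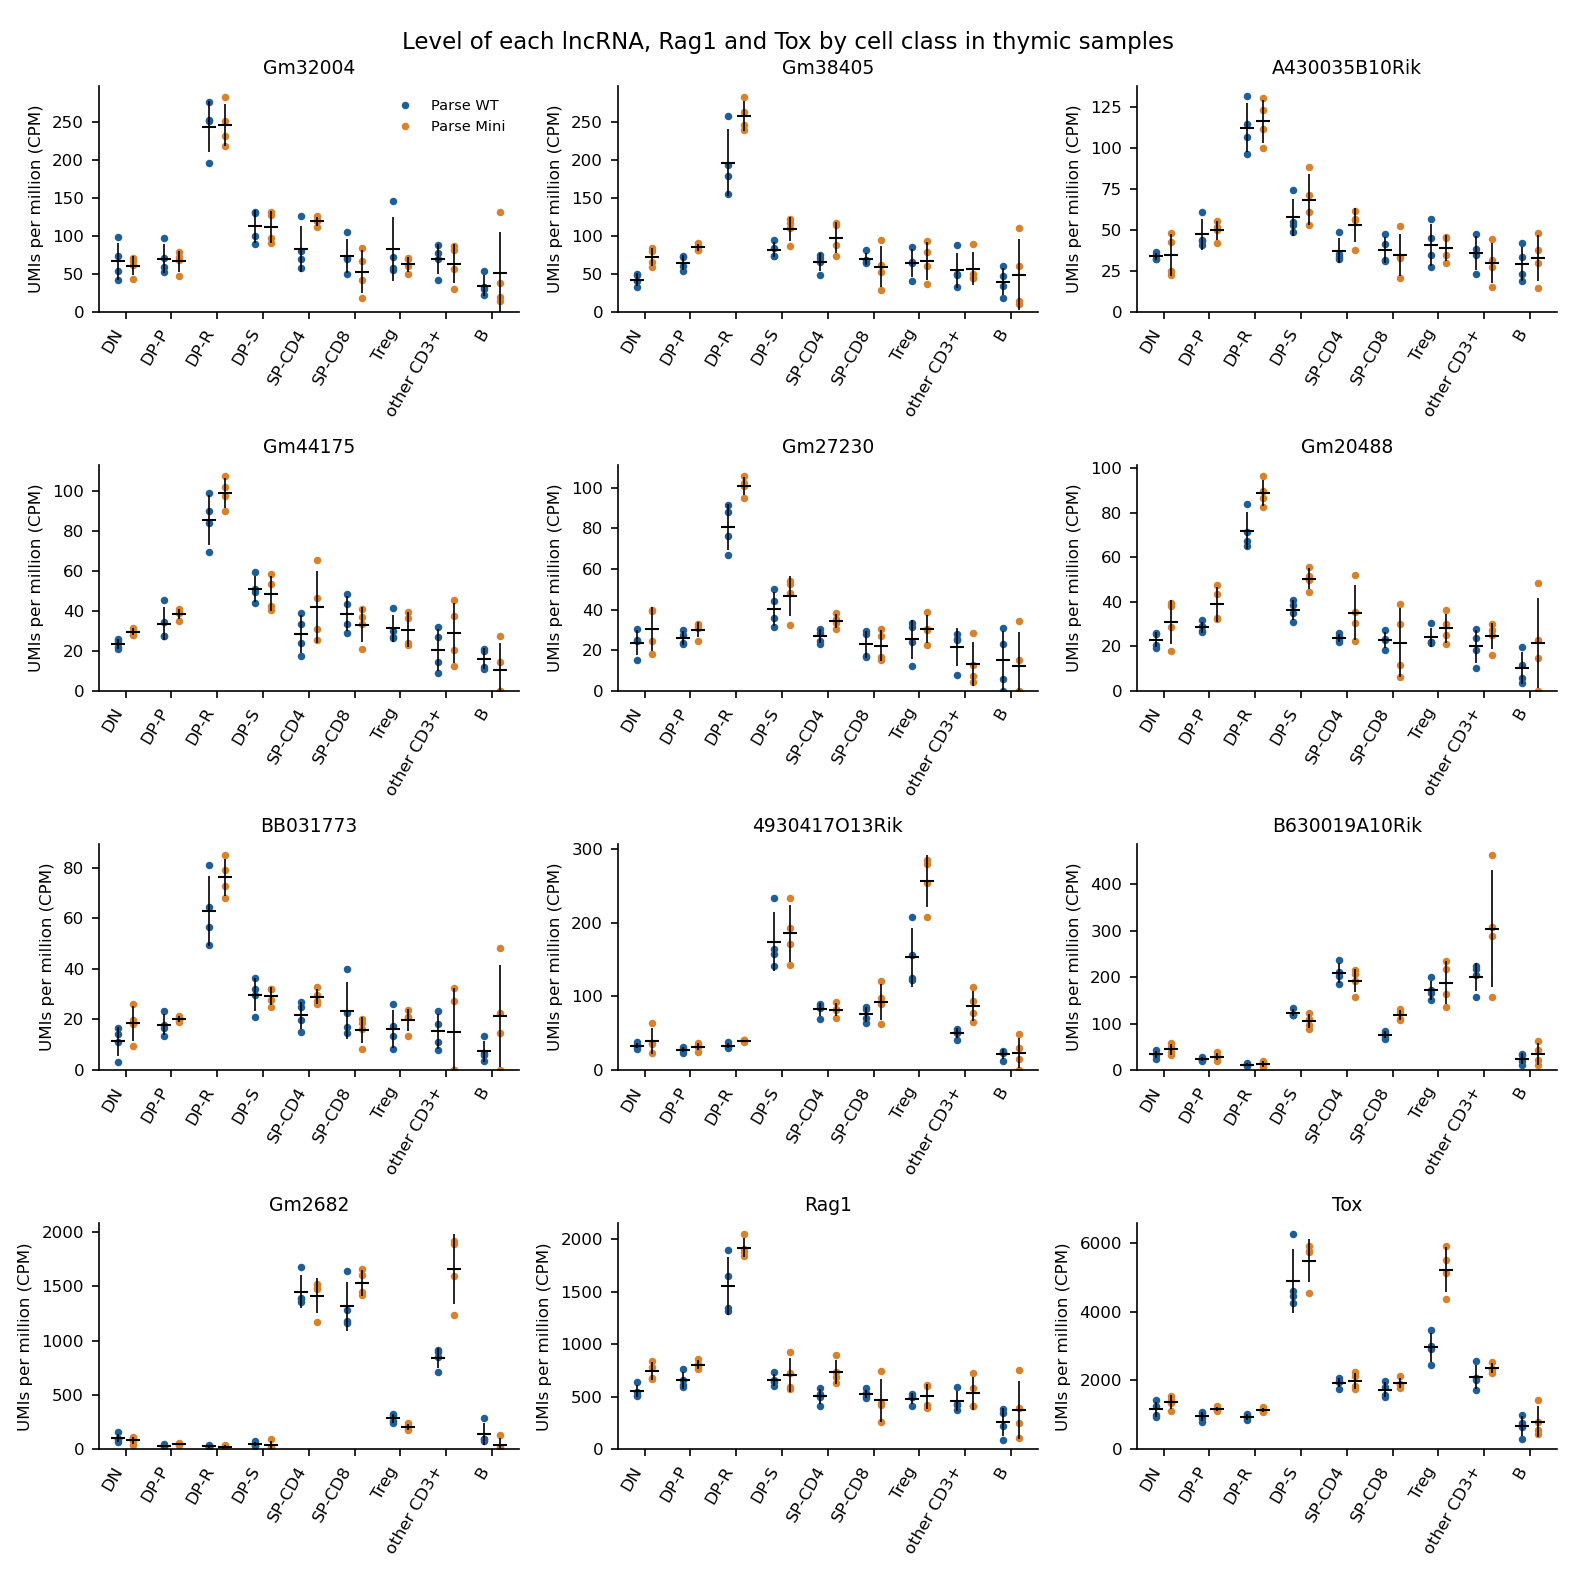
Level of each of the 10 lncRNAs, Rag1 and Tox by cell class, in CPM on linear axes from 0, for Parse WT and Parse Mini. Points are the 4 samples of a kit and bars the mean ± SD. In the panels of 7 lncRNAs and of Rag1 all DP-R-like points lie above those of the other classes, as for Gm32004 (196.3 to 276.6 CPM in Parse WT), while Gm2682 is at 1351 to 1677 CPM in SP-CD4-like cells and at 15.7 to 37.7 CPM in DP-R-like cells.

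Gm32004, Gm38405, A430035B10Rik, Gm44175, Gm27230, Gm20488 and BB031773 were highest in DP-R-like cells. Gm32004 stood there at 253.6, 276.6, 251.1 and 196.3 CPM in samples 1 to 4 of Parse WT. In SP-CD4-like cells it stood at 69.2, 126.1, 80.03 and 57.3 CPM, a ratio of 3.67, 2.19, 3.14 and 3.43 within samples 1 to 4. Sample 2 was the highest in both classes, and no DP-R-like value overlapped an SP-CD4-like value. The order of its class means was DP-R-like (244.4 ± 34.1), DP-S-like (112.8 ± 21.5), SP-CD4-like (83.1 ± 30.1), Treg-like (83.0 ± 42.6), SP-CD8-like (73.8 ± 22.8), DP-P-like (70.0 ± 19.4), other CD3+-like (69.4 ± 19.7), DN-like (66.8 ± 24.6) and B-like (34.6 ± 13.4). Below DP-R-like, the ranges of each pair of neighbours in this order overlapped, while within samples DP-S-like lay above SP-CD4-like and DN-like above B-like in 4 of 4. Parse Mini gave 219.1, 231.7, 283.5 and 252.0 CPM in DP-R-like cells of samples 1-A, 1-B, 2-A and 2-B, and 111.9 ± 20.7 in DP-S-like cells.

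Gm38405, the antisense transcript in Xrra1, stood at 258.1, 179.4, 193.5 and 154.4 CPM in DP-R-like cells of Parse WT and 257.9 ± 19.3 in those of Parse Mini. In Parse WT SP-CD4-like cells it was at 65.3 ± 11.8 CPM. Sample 1 was the highest, and the lowest DP-R-like value was above the highest value of any other named class (94.4). A430035B10Rik, the partner of Glcci1, was at 114.7, 131.8, 96.1 and 106.5 CPM in DP-R-like cells, 57.6 ± 11.2 in DP-S-like cells and 37.3 ± 7.57 in SP-CD4-like cells.

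Gm44175, the neighbour of the CD8 genes, was at 83.9, 99.02, 89.9 and 69.3 CPM in DP-R-like cells of Parse WT. In SP-CD8-like cells, where Cd8a stayed at 532.6 ± 66.6 CPM, Gm44175 was at 38.5 ± 8.85, and in SP-CD4-like cells at 28.4 ± 9.52, so that the ranges of these SP classes overlapped, with SP-CD8-like the higher within 4 of 4 samples in Parse WT and 1 of 4 in Parse Mini. Gm27230 was at 91.5, 66.8, 76.4 and 87.8 CPM in DP-R-like cells and 26.8 ± 3.41 in SP-CD4-like cells. Gm20488 was at 84.0, 65.2, 67.4 and 71.5 CPM against 23.7 ± 1.80. BB031773 was at 81.2, 64.6, 56.4 and 49.3 CPM against 21.7 ± 5.34. In each of the latter 3 the DP-R-like and SP-CD4-like values lay apart, and sample 1 was the highest in DP-R-like cells. In Parse Mini the DP-R-like levels of these 4 and A430035B10Rik ran from 76.2 ± 7.37 CPM for BB031773 to 116.1 ± 13.2 for A430035B10Rik.

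In all 7 the lowest DP-R-like sample was above the highest sample of each of the 10 other named classes of Parse WT and of the 8 of Parse Mini. Of all genes with at least 500 UMIs, 1.44% in Parse WT and 2.59% in Parse Mini had this order, and of the lncRNA genes 5.81% and 12.1%. The same 7 were at least 2-fold higher in DP-R-like than SP-CD4-like cells in all 4 Parse WT samples, where 1.59% of all genes and 8.27% of lncRNA genes were. In Parse Mini this held for 3 of the 10 (Gm27230, Gm38405 and BB031773), against 0.504% of genes and 3.38% of lncRNA genes. The Parse Mini ratios of the other 4 ran from 1.64 to 3.82. Since the genes were picked as leading genes of such clusters, these shares are given beside the counts and nothing is read from them.

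The levels outside DP-R-like cells moved with the depth of the cell. Split at the median UMIs of each Parse WT sample, DP-R-like cells below it held Gm32004 at 266.6 ± 39.3 CPM and those above it at 227.8 ± 33.0. SP-CD4-like cells below it (662 cells, median of 1829.5 UMIs) held 21.6 ± 17.1 CPM, and those above it (754 cells, 5573 UMIs) 97.0 ± 34.8. Rag1 moved alike in SP-CD4-like cells, at 137.2 ± 60.2 CPM below and 589.0 ± 73.6 above. Gm27230 had 4 UMIs in the shallower SP-CD4-like cells, or 3.93 CPM pooled, and 130 in the deeper ones, or 32.5 CPM. In the shallower cells alone the log2 ratio of DP-R-like to SP-CD4-like cells was 3.57 for Gm32004, against 1.54 in all cells, and it was larger than in all cells for each of the 7 in both kits, from 2.30 for A430035B10Rik in Parse Mini to 4.62 for Gm20488 there. Gm2682 moved the other way in SP-CD4-like cells, at 2235 ± 456 CPM below the median and 1276 ± 152 above. The part of residual doublets in these deeper cells was not tested.

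Within the DP-R-like class the clusters differed as well. Gm32004 ran from 166.4 to 275.4 CPM over the 6 Parse WT clusters and from 204.7 to 328.7 over the 7 Parse Mini clusters. BB031773 ran from 33.7 to 76.8 CPM in Parse WT and from 55.2 to 109.6 in Parse Mini, and A430035B10Rik from 99.7 to 118.8 CPM and from 100.9 to 130.4. Rag1 itself ran from 1238 to 1649 CPM over the Parse WT clusters.

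The level outside DP-R-like cells was set against Rag1, which mature cells do not make. For each 100 Rag1 UMIs, pooled over the 4 Parse WT samples, Gm32004 had 15.9 UMIs in DP-R-like, 16.6 in SP-CD4-like and 11.2 in B-like cells. Gm38405 had 12.4, 12.8 and 12.8, A430035B10Rik 7.48, 7.47 and 9.29, and Gm44175 5.60, 5.79 and 6.01. Gm27230 had 5.38, 5.38 and 6.56, Gm20488 4.74, 4.74 and 3.83, and BB031773 4.00, 4.22 and 3.01. The 7 lncRNAs thus had nearly the same ratio to Rag1 in SP-CD4-like cells as in DP-R-like cells. Over the 9 classes of more than 500 cells the ratios moved more. Gm32004 ran from 11.03 in DP-P-like to 17.8 in Treg-like cells, Gm44175 from 4.45 in DN-like to 7.76 in DP-S-like cells, and BB031773 from 2.31 to 4.70 in the same classes. Gm38405 ran from 8.44 to 13.2, A430035B10Rik from 6.37 to 9.29, Gm27230 from 4.07 to 6.56 and Gm20488 from 3.83 to 5.77. B-like cells rest on 41 UMIs of Gm32004 and are given as a cell type outside the T lineage. They held Rag1 at 260.7 ± 134 CPM, against 1555 ± 273 in DP-R-like cells. With cells thinned to 1000 UMIs, a Gm32004 UMI was found in 18.2% ± 2.75 of DP-R-like cells, 5.90% ± 2.49 of SP-CD4-like cells and 1.21% ± 1.48 of B-like cells. Whether UMIs in SP, DN and B-like cells came from RNA of DP-R cells under another cell's barcode was not tested.

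**Figure D2:**
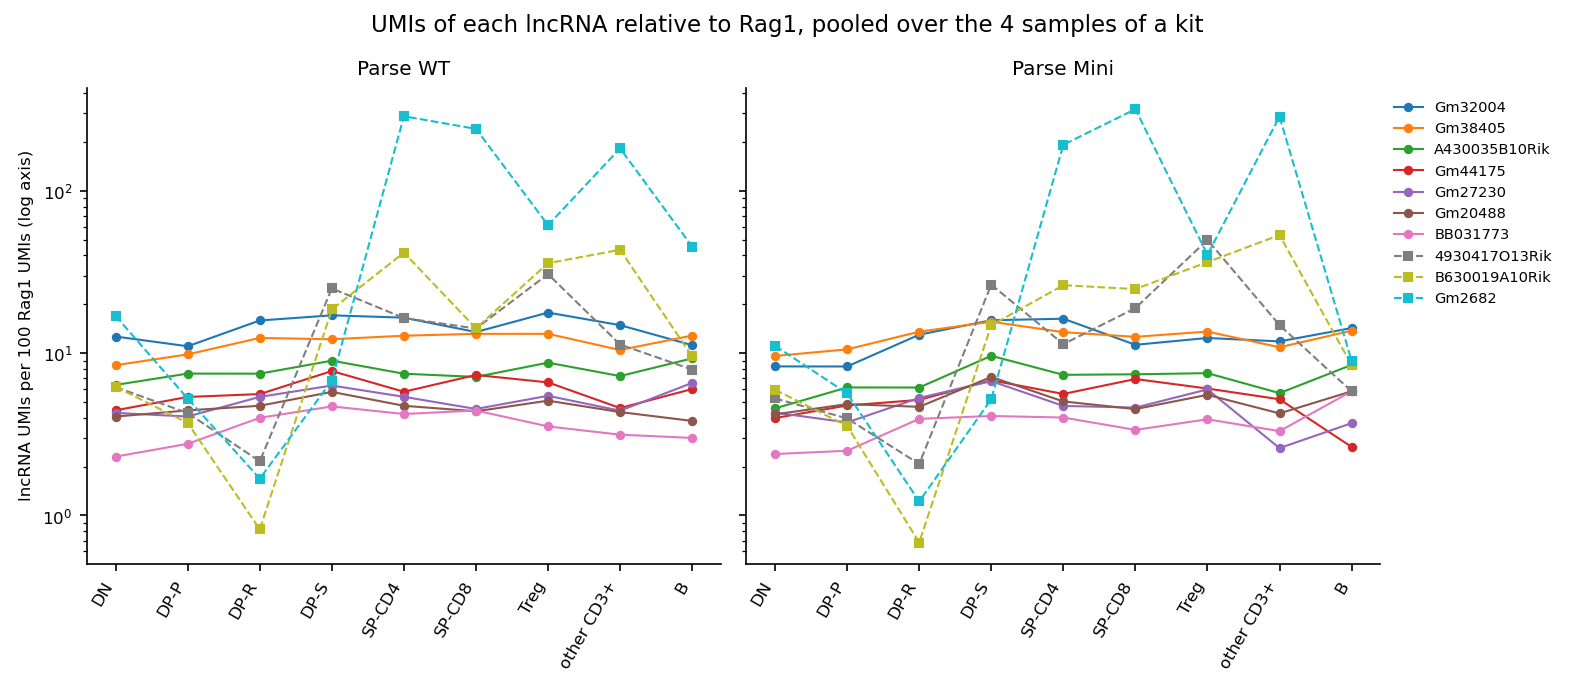
UMIs of each lncRNA per 100 Rag1 UMIs, pooled over the 4 samples of a kit, by cell class, on a log axis. Solid lines are the 7 lncRNAs highest in DP-R-like cells and dashed lines the other 3. Solid lines move little between DP-R-like and SP-CD4-like cells (Gm38405 12.4 and 12.8 in Parse WT) and more over all classes (BB031773 2.31 to 4.70), and dashed lines are lowest in DP-R-like cells.

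The other 3 lncRNAs were low in DP-R-like cells. 4930417O13Rik was at 37.9, 32.8, 30.02 and 30.8 CPM there, at 233.1, 157.4, 164.4 and 141.7 CPM in DP-S-like cells and at 207.6, 122.6, 156.0 and 124.6 CPM in Treg-like cells of Parse WT. The ranges of DP-S-like and Treg-like cells overlapped, DP-S-like was the higher within 4 of 4 samples, and both lay above those of DP-R-like and SP-CD4-like cells (82.7 ± 8.75). In Parse Mini the Treg-like level was 207.1, 253.3, 279.0 and 285.1 CPM and the DP-S-like level 143.1, 170.9, 193.1 and 233.8. These ranges overlapped too, but Treg-like was the higher within 4 of 4 samples, so the order of these classes turned between the kits. Tox stood at 4897 ± 927 CPM in DP-S-like and 939 ± 76.8 in DP-R-like cells of Parse WT.

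B630019A10Rik, upstream of St6gal1, was at 8.03, 15.3, 11.5 and 12.5 CPM in DP-R-like cells, which overlapped the 24.6 ± 11.1 of B-like cells. It was at 134.5, 119.5, 119.1 and 118.9 CPM in DP-S-like cells and at 236.4, 211.7, 184.6 and 201.4 CPM in SP-CD4-like cells, with no overlap between them. Other CD3+-like (200.9 ± 29.96) and SP-CD4-like values overlapped, while SP-CD8-like cells held 76.0 ± 7.66. Its highest Parse WT level was in an unnamed cluster of 2912 cells, at 431.1, 289.0, 293.1 and 271.6 CPM, which was led by Prlr, Chl1 and Zbtb7b, the last a factor of the CD4 lineage, and had Tox at 3268 ± 906 CPM. A Parse Mini cluster of 1250 cells with Chl1, Prlr and Zbtb7b in front held 426.2 ± 43.2 CPM.

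Gm2682 was at 15.7, 37.7, 24.4 and 21.1 CPM in DP-R-like cells, 43.7 ± 18.4 in DP-S-like cells, 1677, 1388, 1382 and 1351 CPM in SP-CD4-like cells and 1644, 1279, 1161 and 1181 CPM in SP-CD8-like cells of Parse WT. The ranges of the SP classes overlapped, SP-CD4-like was the higher within 4 of 4 samples, and both lay far above every DP class. Other CD3+-like cells held 841.7 ± 90.0 CPM and Treg-like cells 284.9 ± 42.8. In Parse Mini, other CD3+-like (1659 ± 321), SP-CD8-like (1533 ± 118) and SP-CD4-like cells (1413 ± 160) overlapped, with no pair in the same order in all 4 samples. Per 100 Rag1 UMIs, Gm2682 had 1.68 UMIs in DP-R-like and 288.5 in SP-CD4-like cells, B630019A10Rik 0.821 and 41.7, and 4930417O13Rik 2.16 in DP-R-like and 30.7 in Treg-like cells.

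Counting the class with the highest mean, 8 of the 10 lncRNAs peaked in a DP class in Parse WT and 7 in Parse Mini. Of all genes with at least 500 UMIs, 29.7% did so in Parse WT (34.9% of lncRNA genes) and 34.6% in Parse Mini (47.3%). The kits differed in 4930417O13Rik, so the count depends on the Treg-like cluster, which is called by its markers only.

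Single cells were then split by a Rag1 or Tox UMI after each cell was thinned to 1000 UMIs, since deeper cells hold more of every gene. The Rag1 split gave the same 7 lncRNAs an odds ratio above 1 in all 4 samples of each kit, as it did 17.6% of genes in Parse WT (31.2% of lncRNA genes) and 16.4% in Parse Mini (34.1%). Gm32004 was found in 14.5% ± 2.08 of Rag1-positive and 6.79% ± 1.46 of Rag1-negative cells of Parse WT, a log2 odds ratio of 1.23 ± 0.23. Gm38405 (1.36 ± 0.53) and Gm27230 (1.33 ± 0.51) were at the upper end and Gm20488 (0.94 ± 0.57) and BB031773 (0.90 ± 0.22) at the lower, within each other's spread. Within DP classes alone the means of the 7 ran from 0.51 for BB031773 to 1.11 for Gm38405. B630019A10Rik (−1.62 ± 0.65), Gm2682 (−1.33 ± 0.54) and 4930417O13Rik (−0.93 ± 0.20) were below 0 in all samples. Within DP classes alone these means were −1.52, −0.61 and −0.96 in that order, and in Parse Mini that of Gm2682 was −0.33 ± 0.61, with 2 of 4 samples above 0. In all Parse Mini cells the means of the 7 ran from 0.88 for A430035B10Rik to 1.41 for Gm32004, and those of the other 3 from −1.93 for B630019A10Rik to −1.26 for 4930417O13Rik.

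With Tox the sides changed. B630019A10Rik, 4930417O13Rik and Gm2682 had an odds ratio above 1 in all 4 samples of each kit, against 15.9% of genes in Parse WT (10.6% of lncRNA genes) and 14.4% in Parse Mini. B630019A10Rik was found in 9.83% ± 1.66 of Tox-positive and 2.07% ± 0.14 of Tox-negative cells (log2 odds ratio 2.34 ± 0.35). 4930417O13Rik followed at 1.54 ± 0.26 and Gm2682 at 0.67 ± 0.16. Within DP classes the means were 2.51, 1.55 and 0.24, and in all Parse Mini cells 2.44, 1.87 and 0.91. The 7 lncRNAs of DP-R-like cells had Parse WT means from −0.58 for Gm27230 to −0.30 for Gm32004. In Parse Mini their means ran from −0.66 for Gm38405 to −0.30 for Gm44175. There Gm32004, Gm44175 and BB031773 each had 1 sample with an odds ratio above 1. Within DP classes the means ran from −0.45 to −0.16 in Parse WT and from −0.47 to −0.05 in Parse Mini, with some samples above 0. The means over all cells turned positive without thinning, as given under the alternatives. Without thinning, 98% of all genes had an odds ratio with Tox above 1 in all 4 samples of Parse WT (98.1% of lncRNA genes), and 99.2% in Parse Mini (98.6%).

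Both markers together made 4 gates, here in cells thinned to 2000 UMIs (3712 Rag1+Tox-, 10566 Rag1+Tox+, 5580 Rag1-Tox+ and 1388 Rag1-Tox- cells in Parse WT). Gm32004 was found in 19.6% ± 2.78, 20.8% ± 2.90, 7.98% ± 4.15 and 7.91% ± 2.78 of them in that order. Its share thus followed Rag1 and was alike with and without Tox. Gm38405 (21.7%, 20.5%, 7.24% and 7.29%) and A430035B10Rik (13.9%, 13.7%, 5.80% and 4.95%) were likewise found in larger shares of both Rag1+ gates than of both Rag1- gates. B630019A10Rik was found in 2.43%, 10.6%, 21.5% and 3.25%, so its share was highest with Tox and no Rag1. 4930417O13Rik (4.05%, 10.8%, 15.9% and 3.53%) was alike in this, and Gm2682 (6.96%, 12.5%, 22.4% and 12.6%) was found in like shares of the cells with neither marker and with both. In Parse Mini the shares of Gm32004 were 21.02%, 21.2%, 6.33% and 6.14%, and those of B630019A10Rik 1.57%, 9.00%, 20.7% and 2.49%. Cells with fewer than 2000 UMIs outside ribosomal RNA were left out of the gates. Thymic DP-R-like cells of Parse WT had a median of 1976 UMIs, and the DP-P-like clusters medians of 8012 and 7603.5. The gates therefore left out a larger share of DP-R-like than of DP-P-like cells.

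**Figure D3:**
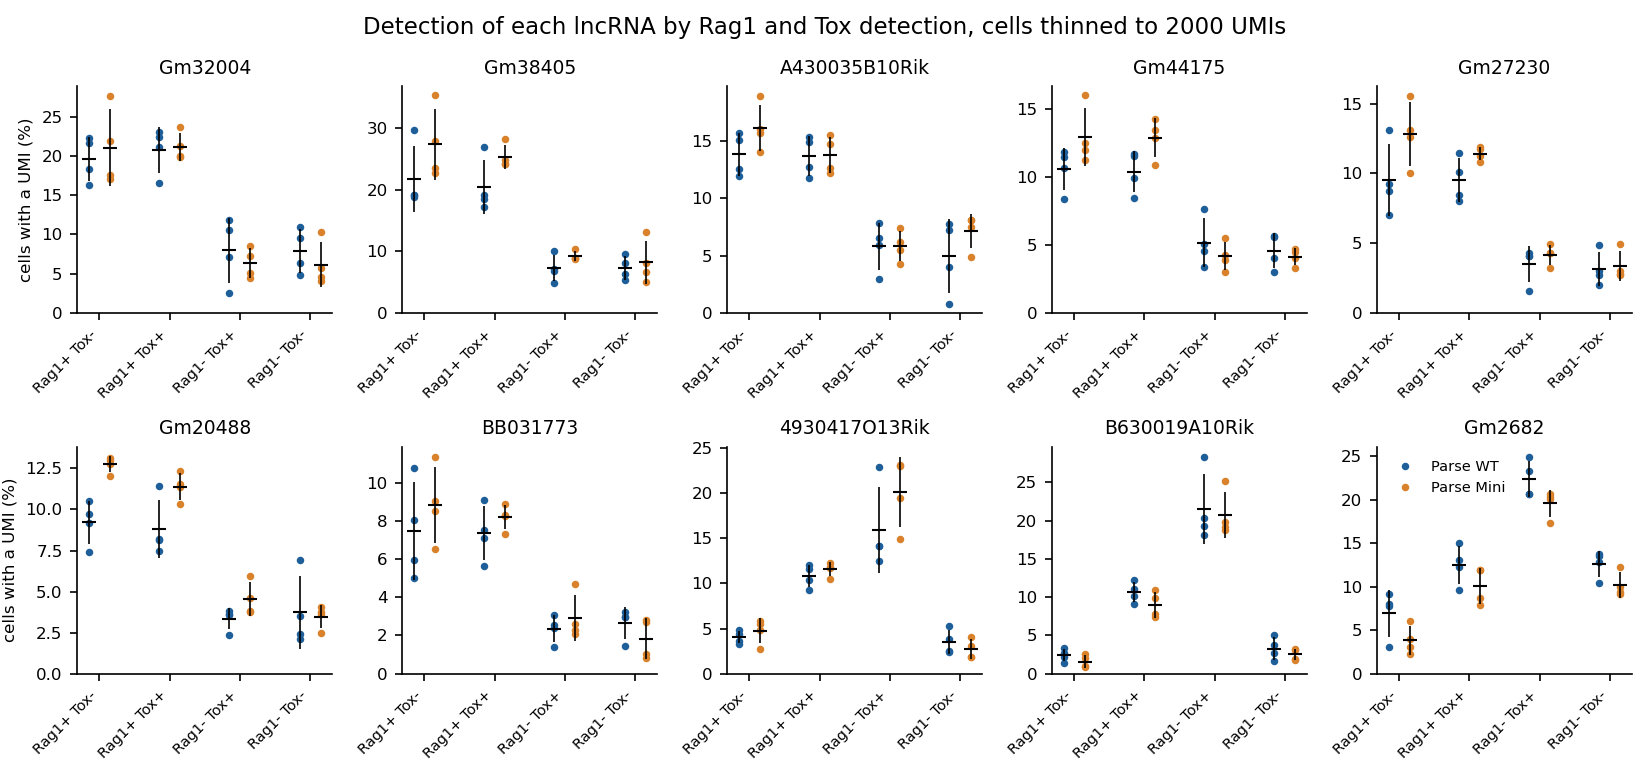
Percent of cells with a UMI of each lncRNA in 4 gates set by Rag1 and Tox UMIs, in cells thinned to 2000 UMIs, for both kits. Points are the 4 samples and bars the mean ± SD. The 7 DP-R lncRNAs are high in both Rag1+ gates (Gm32004 19.6% and 20.8% in Parse WT), and B630019A10Rik is highest in Rag1-Tox+ cells (21.5%).

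The 16 other Parse WT samples, which have no group in the labels, gave lower levels for most of the 10 lncRNAs. For 8 the lowest thymic sample was above the highest of the 16, as it was for 13.8% of all genes with at least 500 UMIs and 16.1% of lncRNA genes. Gm32004 ran there from 0.673 to 5.62 CPM with a median of 1.53, and the thymic mean was 79.3 times that median. Gm27230 had a median of 0.310 CPM and a ratio of 133, and Gm20488 0.333 CPM and a ratio of 117, beside 128 for Rag1. Over the 16 samples these lncRNAs had only 126 and 108 UMIs, against 2226 of Rag1, so their ratios are uncertain. A430035B10Rik differed less, at 1.85 to 9.04 CPM and a ratio of 8.75, and B630019A10Rik at 3.70 to 28.5 CPM and a ratio of 11.04.

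The exceptions were 4930417O13Rik, which reached 128.5 CPM in 1 of the 16 samples with a median of 10.9, and Gm2682, which stood at 166.1 to 1238 CPM with a median of 374.1, so that the thymic mean was 0.502 times the median. The thymic and other values of Gm2682 overlapped.

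**Figure D4:**
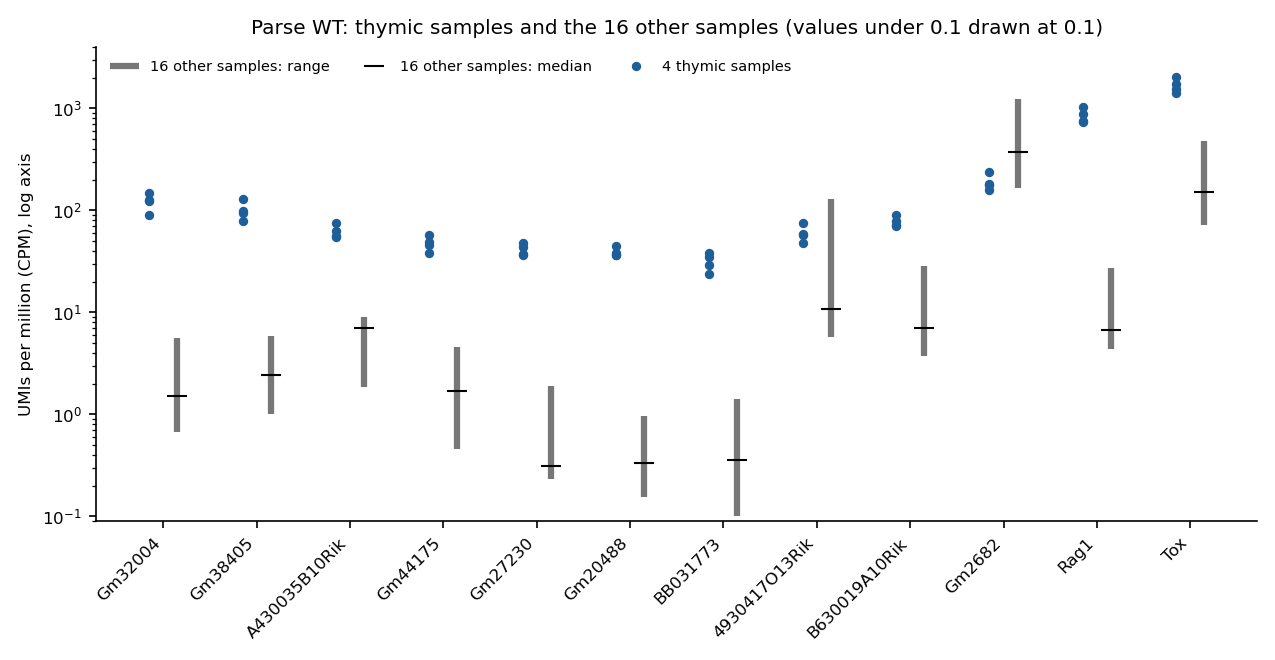
Level of each lncRNA in the 4 thymic Parse WT samples (points) and the lowest, median and highest of the 16 other samples of the same library (bar and mark), in CPM on a log axis where values under 0.1 are drawn at 0.1. The thymic points lie above the bar for 8 lncRNAs and within it for 4930417O13Rik. For Gm2682 they lie near its lower end, with sample 4 (157.6 CPM) below the bar, which starts at 166.1 CPM.

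The cells of those 16 samples were clustered on their own, and 1773 of 79828 (2.22%) fell in a DP-R-like cluster, between 0.0951% and 8.15% of a sample. They were shallow, with a median of 1114 UMIs against 1976 in thymic DP-R-like cells. Pooled, they held Gm32004 at 108.6 CPM, Gm38405 at 79.6, A430035B10Rik at 35.5, Gm44175 at 29.6, Gm27230 at 28.3, BB031773 at 28.3 and Gm20488 at 17.8, with Rag1 at 494.9. They also held Gm2682 at 223.1 CPM, against 24.7 ± 9.39 in thymic DP-R-like cells of Parse WT, and Tox at 1399 CPM, against 939 ± 76.8. In B-like cells of these samples (23391 cells) Gm32004 was at 0.953 CPM and Rag1 at 6.12, far under the thymic B-like values of 34.6 and 260.7. A430035B10Rik was at 9.35 CPM in those B-like cells (510 UMIs), more than Rag1, whereas thymic B-like cells held 9.29 of its UMIs per 100 of Rag1.

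The other 3 lncRNAs differed from each other in the mature cells of the 16 samples. Gm2682 was at 3031 CPM in SP-CD4-like, 2928 in NK-like, 2635 in SP-CD8-like, 2491 in other CD3+-like and 1546 in Treg-like cells, and at 36.0 in B-like cells. 4930417O13Rik was at 146.5 CPM in Treg-like, 92.5 in SP-CD4-like and 54.0 in SP-CD8-like cells. B630019A10Rik was at 91.1, 82.2 and 20.97 CPM in the same classes and at 36.9 in DP-R-like cells (56 UMIs), and Gm32004 at 2.25 CPM in SP-CD4-like cells.

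For each lncRNA the genes most like it were those with the highest Pearson correlation of log2(CPM + 1) over the 21 Parse WT clusters, given with the value over the 21 Parse Mini clusters. Clusters share libraries and differ in depth, and the genes were chosen for high values, so r is a description. Gm32004 was most like Bcat2 (0.983 and 0.879), a branched-chain aminotransferase, and Rag1 (0.972 and 0.881). Gm44175 was most like Themis (0.974 and 0.926), a protein of thymocyte selection. Gm38405 was most like Mad1l1 (0.990 and 0.987), a spindle checkpoint protein. Gm27230 had Mad1l1 (0.979 and 0.957) among its 3 most alike genes, and Gm20488 had Chrna9 (0.980 and 0.982). BB031773 was most like Xrra1 (0.980 and 0.911), the host of Gm38405. Among the later lncRNAs, B630019A10Rik was most like Stk39 (0.948 and 0.952), a kinase, and 4930417O13Rik like Tox (0.955 and 0.957) and Cd5 (0.905 and 0.920), an inhibitory receptor that tracks receptor signal. Gm2682 was most like Ms4a4b (0.963 and 0.962), a membrane protein of T cells, and S1pr1 (0.947 and 0.882), the receptor for exit from the thymus.

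Among themselves the 7 DP-R lncRNAs had an r between 0.669 (BB031773 with A430035B10Rik) and 0.979 (Gm27230 with Gm38405) over the Parse WT clusters, in 21 pairs. B630019A10Rik had 0.785 with 4930417O13Rik and 0.676 with Gm2682.

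Neighbours on the chromosome were set beside each gene in the same way. Gm44175 had an r of 0.943 and 0.910 with Cd8a and 0.915 and 0.939 with Cd8b1, but 0.745 and 0.743 with Gm44174, which it lies within. Gm44174 was at 437.1, 231.6, 239.7 and 257.9 CPM in SP-CD8-like cells and 87.3 ± 11.7 in DP-R-like cells, so its highest class was not that of Gm44175. A430035B10Rik had an r of 0.944 and 0.952 with Glcci1, which stood at 2015 ± 240 CPM in DP-R-like and 861.6 ± 96.9 in SP-CD4-like cells. Gm20488 followed BC028471 (0.982 and 0.967) more closely than Medag (0.780 and 0.810), although both share exonic bases with it.

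Gm38405 had 0.798 and 0.934 with Xrra1, at 41.7 ± 11.2 CPM in DP-R-like cells, and Gm27230 had 0.871 and 0.912 with BC065403. B630019A10Rik had 0.844 and 0.846 with St6gal1, which stood at 592.0 ± 74.3 CPM in DP-S-like and 178.1 ± 16.7 in DP-R-like cells. 4930417O13Rik had 0.272 and −0.017 with Vamp1. For Gm20488, BB031773, B630019A10Rik and Gm38405 shared bases may add to these values.

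**Figure D5:**
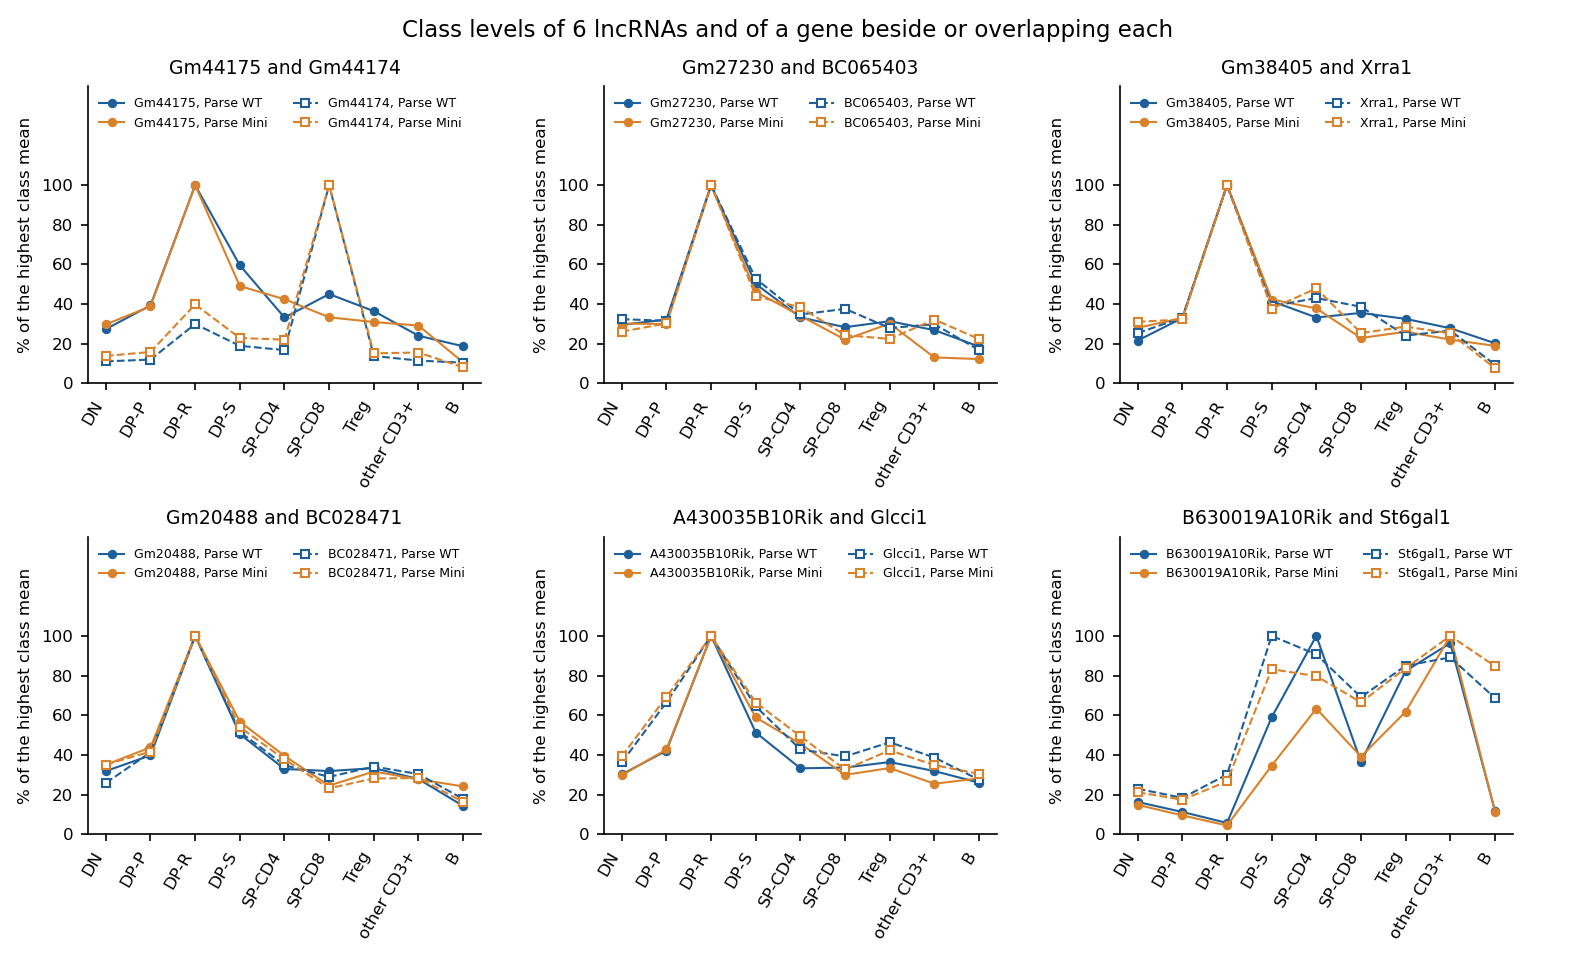
Class mean as percent of the highest class mean, for 6 lncRNAs and a neighbouring gene, over the cell classes of both kits (colours). Each panel pairs a lncRNA with Gm44174, BC065403, Xrra1, BC028471, Glcci1 or St6gal1. The lines run close for Gm20488 and BC028471, and part for Gm44175, highest in DP-R-like cells, and Gm44174, highest in SP-CD8-like cells.

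Gene lists give the setting of the 10 lncRNAs. The median log2 ratio of DP-R-like to SP-CD4-like cells was 1.55 over the 10 in Parse WT and 1.17 in Parse Mini. Single members ran from −5.82 to 1.57 in Parse WT and from −5.84 to 1.52 in Parse Mini, so the median hides a split set. Over all genes with at least 500 UMIs the medians were 0.00 and −0.01. The 10 were picked as leading genes of such clusters, so nothing is read from their distance to other lists. Of 14 genes of the recombination stage, 11 were highest in DP-R-like cells of Parse WT (10 in Parse Mini), among them Rag1, Rag2, Arpp21, Dntt and Cd8b1, with a median log2 ratio of 1.18 (0.97). Of these, 6 were at least 2-fold higher in all 4 Parse WT samples and 3 in Parse Mini, Rag1 and Arpp21 among them. Of 12 much studied lncRNAs such as Malat1, Neat1, Gas5 and Pvt1, none was 2-fold higher in either kit, and 1 (Neat1, in Parse Mini) was highest in DP-R-like cells, with a median log2 ratio of −0.12 (−0.01). Of 11 selection genes such as Tox, Cd69, Nr4a1 and Gata3, none was highest in DP-R-like cells, and their median was −1.49 (−1.41).

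The technical spread of the values was read from wells and sublibraries. Cells of a thymic sample entered 2 first-round wells in Parse WT and 3 in Parse Mini, and within the class where a lncRNA was highest the largest ratio between wells of a sample was 1.19 to 1.73 over the 10 genes in Parse WT. In Parse Mini it was 1.18 to 1.58 for the 7 DP-R lncRNAs, and 3.79 for B630019A10Rik and 6.26 for Gm2682, whose highest class there, other CD3+-like, held 178 cells. Over the Parse WT sublibraries (9 for the 7 DP-R lncRNAs and 8 for the other 3) the coefficient of variation was 6.48% to 15.0%, the highest being that of B630019A10Rik.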

How the data were processed

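Thymic cells were profiled with the Parse Evercode WT v2 and WT Mini v2 split-pool kits, which count transcripts by UMI. Per the deposited files, the values are whole-number UMI counts per cell and gene, made by the authors and not normalized; reads were processed per sublibrary with split-pipe on mm10 from Ensembl, and use of strand is not stated. Samples were taken from the sample column of the cell tables. Barcodes outside 500 to 25000 UMIs, or over 15% mitochondrial, were dropped. Doublets were called per sample with simulated doublets and LightGBM 4.6.0 over 10 runs and removed. The number of calls was set to the barcode collision rate expected from the number of cells (1.45% to 6.82% in Parse WT, 4.47% to 5.43% in Parse Mini). The study, with its own doublet calling, reported several times larger shares for both Parse libraries, so many further doublets may remain. Cells were clustered per kit with Seurat 5.3.0 in R 4.3.3 (SCTransform by sctransform 0.4.2, 3000 features without the 10 lncRNAs, 30 components, resolution 0.8). A cluster was named from at least 3 markers at 1.25-fold or more, with a mean log2 score of at least 0.4 over the class markers. Clusters with a close rival class, shallow clusters without a leading marker, and any on a list of exceptions stayed unnamed. Co-detection used cells thinned to 1000 UMIs with 0.5 added to each cell of the 2 by 2 table, and shallower cells were left out (478 to 2602 a sample in Parse WT). Likeness used log2(CPM + 1) of genes with at least 500 UMIs. Other steps ran in Python 3.11.15 with numpy 2.4.6, pandas 2.3.3 and scipy 1.17.1, and were checked on simulated data.

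The text names the 10 lncRNAs, Rag1, Tox, the cell class markers, the 3 genes most like each lncRNA and its neighbours, except items that are not reported here. The members and the gene lists were chosen with earlier results of these data known. No comparison was tested, so no p-value is given. Alternatives were other thinning, other cluster resolutions, all barcodes, all UMIs as denominator and leaving out each sample.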

Additional observations from a re-analysis of the deposited data

Results flagged for a closer look

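Of 100 sets of 4 values (10 lncRNAs, whole samples and 4 classes, both kits), 6 held a value that stood far from the other 3, and chance flags about 1 in 20 such sets. In Parse WT, sample 1 stood apart for Gm20488 over the whole sample (44.6 CPM, others 36.6 to 38.0), for B630019A10Rik in DP-S-like cells (134.5 CPM, others 118.9 to 119.5) and for Gm2682 in SP-CD4-like cells (1677 CPM, others 1351 to 1388). Sample 2 stood apart for Gm2682 in DP-S-like cells (71.0 CPM, others 31.0 to 37.6). In Parse Mini, sample 1-B was low for 4930417O13Rik in DP-R-like cells (37.9 CPM, others 40.1 to 40.5), and sample 2-A was low for Gm2682 in SP-CD4-like cells (1174 CPM, others 1475 to 1520).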

How the results depend on the processing

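Under leaving out each sample in turn, the number of lncRNAs with an odds ratio above 1 was 7 for Rag1 and 3 for Tox, the number above the 16 other samples 8, and the number highest in a DP class 8 in Parse WT and 7 in Parse Mini, as with all samples. The counts for Rag1, Tox and the 16 other samples ask for the order in every sample. Leaving out a sample can therefore only keep or raise these counts, and nothing is read from their staying the same. The summed level of the 10 in Parse WT was 592.9 CPM with ribosomal RNA in the denominator and 725.5 to 810.4 without 1 sample. In Parse Mini it was 755.4 CPM with ribosomal RNA, 830.4 over all barcodes, 1003.9 as a mean over cells and 865.1 to 890.6 without 1 sample. Without thinning, 10 lncRNAs were found more often with Tox in each kit, against 3, as were 98% of all genes with at least 500 UMIs in Parse WT and 99.2% in Parse Mini. The log2 odds ratios with Tox that turned positive were, in Parse WT, Gm32004 0.56, Gm44175 0.64, Gm27230 0.74, Gm38405 0.59, Gm20488 0.73, BB031773 0.50 and A430035B10Rik 0.74, and in Parse Mini 0.32, 0.55, 0.38, 0.30, 0.54, 0.48 and 0.52 in the same order. That of 4930417O13Rik with Rag1 turned to 0.13 in Parse WT. The cause was not tested. At resolution 0.5 no cluster was named SP-CD4-like, so the ratio of DP-R-like to SP-CD4-like cells could not be given. No paired analysis was possible because no result comes from a test, and class ratios are given within each sample. The levels are limited by depth in classes of few cells, such as 41 UMIs of Gm32004 in B-like cells.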
